A study of Manis javanica with 3 samples.

Results

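The genes described here encode the proteins that join neighbouring cells: claudins, occludin and its partners, cadherins, desmosomal cadherins, protocadherins and connexins. They were chosen by the protein name that the deposited annotation gives each gene from the NCBI non-redundant protein database. A gene was a member when that name contained claudin, cadherin, gap junction, desmoglein, desmocollin, occludin, tight junction protein or junctional adhesion molecule. Of 22538 annotated genes, 160 met the rule, and 156 of these had a row in the expression tables, which hold 24220 genes. The other 4 (CLDN9, PCDHB14, PCDHB15 and PCDHGA2) had no row, so no level is given for them. The measured members were 22 claudins, 9 genes of the occludin, zonula occludens (ZO) and junctional adhesion molecule (JAM) group, 30 cadherins, 7 desmosomal cadherins, 54 protocadherins with the giant cadherins FAT and DCHS, 8 CELSR and cadherin-related genes, 21 connexins and 5 genes for other proteins whose names contain one of the words.

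The study sequenced messenger RNA of the Malayan pangolin (Manis javanica), taking liver, salivary glands and small intestine. All 3 tissues came from an adult female, 1 wild animal that died during rescue, and each gave 1 library. No replicate therefore estimates the spread between animals or between preparations, no p-value is given, and every difference below compares 1 library with another. Each is a whole piece of tissue, so fewer cells of a type and less RNA per cell cannot be told apart.

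Epithelial cells are held together by a series of junctions. In tight junctions, claudins seal the gap between cells or form charge-selective pores in it, occludin and the JAM proteins accompany them, and ZO proteins tie them to actin. Classical cadherins bind the same cadherin on the neighbouring cell and hold adherens junctions. Desmogleins and desmocollins join cells in desmosomes, which anchor keratin filaments. Connexins form the channels of gap junctions, through which ions and small molecules pass. Each tissue uses its own selection of claudins and connexins, whereas E-cadherin and the ZO proteins are found in most epithelia.

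The libraries held 10158924 fragments on genes in the small intestine, 8318686 in the salivary glands and 14568778 in the liver. Marker genes go against one label. Of 13 gastric genes, 10 were at least 2-fold higher in the library labelled small intestine than in both others, among them ATP4A, a subunit of the acid pump, at 1073 FPKM, the fragments counted per kilobase of transcript at a common library size. GIF and LIPF of the list did not lead, with 9 and 5 fragments there and 0 in both others, and gastrin was at 0 in all libraries. The 11 genes of the absorptive enterocyte list had a median of 0.205 FPKM there, with 4 of them at 0 (FABP2 and LCT among these) and 2 leading there, SLC5A1 at 1.94 FPKM and SLC15A1 at 0.623 FPKM. VIL1, at 24, 25.7 and 21.2 FPKM, led nowhere. That library is called the intestine-labelled library below. The hepatocyte list (14 genes) had a median of 385 FPKM in the liver and the salivary gland list (6 genes) a median of 61.2 FPKM in the salivary glands, as their labels say. The salivary check is the thinner one, since 9 of its 15 symbols had no gene and 4 of the 6 genes led in the glands. BHLHA15 (95.9 FPKM in the glands, 64.8 in the liver) and LPO (0.175 FPKM in the glands) did not lead.

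Junction genes were unevenly expressed. Of the 156 members, 78 exceeded 1 FPKM in at least 1 library (all genes, 69.3%), and 33 did so in all 3 libraries (all genes, 46.9%). No fragment was counted for 26 members (16.7%, all genes 13.0%), of which 12 were protocadherins, 6 cadherins and 5 connexins. In all, 54 members had under 10 fragments over the 3 libraries and 102 had at least 10 (all genes, 18642 of 24220). By library, 67 members exceeded 1 FPKM in the intestine-labelled library (all genes, 59.4%), 47 in the salivary glands (all genes, 56.3%) and 52 in the liver (all genes, 57%). The members took 0.248%, 0.346% and 0.149% of all fragments in these libraries, respectively.

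The libraries were compared by counts scaled by the trimmed mean of M-values (TMM), given as a log2 fold or a ratio, and a gene was called when it differed at least 2-fold with at least 10 fragments over the pair. Between the intestine-labelled library and the salivary glands, 48 of 98 members (49.0%) were higher in the former, where 20.5% of all genes were, and 23 (23.5%) in the latter, where 17% of all genes were. Between the intestine-labelled library and the liver, 45 of 94 members (47.9%) were higher in the former (all genes, 24.5%) and 12 (12.8%) in the liver (all genes, 23.8%). Between the salivary glands and the liver, 31 of 79 members (39.2%) were higher in the glands (all genes, 23.2%) and 24 (30.4%) in the liver (all genes, 24.5%). The median log2 fold of the members was 0.85, 0.90 and 0.52 in these 3 pairs, with medians over all genes of -0.01, -0.06 and -0.05. The 3 pairs share libraries and are not independent of each other.

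A member is said to lead in a library when it was at least 2-fold over both others there. The intestine-labelled library led for 31 of 102 members (all genes, 12.4%), the salivary glands for 19 (all genes, 9.15%), the liver for 8 (all genes, 15.7%) and no library for 44. The leaders differed by junction type. In the salivary glands, 7 of the 19 were claudins, 2 of them models of CLDN10. In the intestine-labelled library, 12 of the 31 leaders were cadherins, 8 protocadherins, 3 desmosomal cadherins, 3 connexins and 1 a claudin. The 12 cadherins include 3 models of CDH8 and 2 of CDH13. Among the 102 members were 16 claudins, 21 cadherins, 6 desmosomal cadherins, 31 protocadherins and 9 connexins. Protocadherins and connexins thus led in that library at close to their share of the 102. Of the 50 members with at least 10 fragments in every library, only 10 (20.0%) stayed within 2-fold in all pairs, compared with 47.1% of all genes. Of those 10, 4 belonged to the occludin, ZO and JAM group, 2 of them models of TJP1. That group had 9 members with this many fragments, so its 4 of 9 is near the share of all genes.

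**Figure D1:**
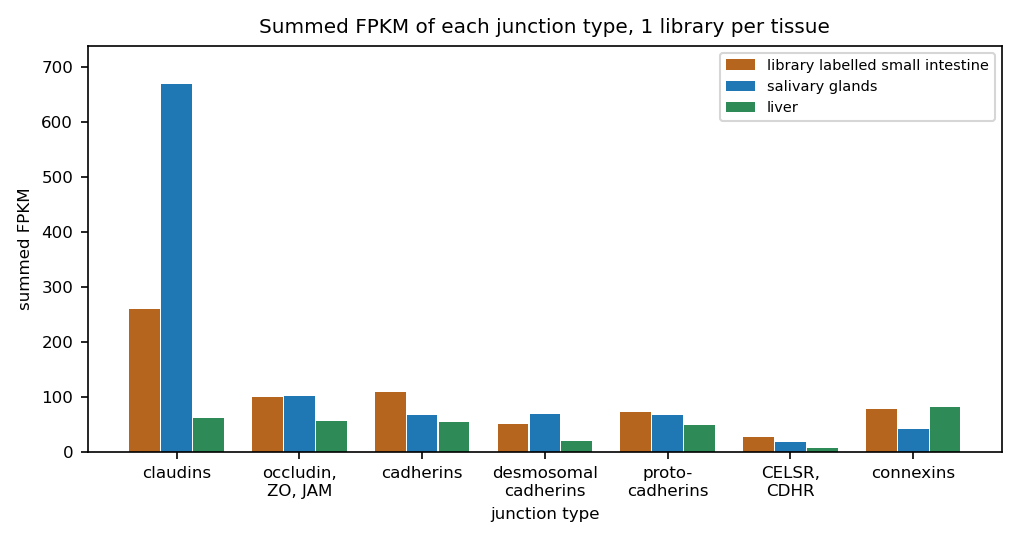
Summed FPKM of the members of each junction type (y axis, linear from 0) in the 3 libraries (bars, 1 library each, without error bars because there are no replicates). Claudins show the widest gap, at 259.5 in the intestine-labelled library, 669 in the salivary glands and 61.4 in the liver, and connexins were lowest in the salivary glands at 40.6, an order that does not hold without GJA1 (29.6, 38.1 and 79.1).

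Summed levels set the types apart. Claudins summed to 259.5 FPKM in the intestine-labelled library, 669 in the salivary glands and 61.4 in the liver. The occludin, ZO and JAM group summed to 99.3, 101 and 56.4 FPKM in the same order, and the desmosomal cadherins to 50.5, 68.3 and 19.6 FPKM. These sums rest on few genes. Without DSG2 the desmosomal sums were 37.7, 26.8 and 3.63 FPKM, and without TJP3 those of the occludin, ZO and JAM group were 83.2, 64.1 and 52.3 FPKM, both then highest in the intestine-labelled library. The connexin sums of 77.2, 40.6 and 81 FPKM became 29.6, 38.1 and 79.1 FPKM without GJA1, so that the glands were no longer lowest. A single gene made up 75.1% of the claudin sum in the intestine-labelled library, and 3 genes made up 82.7% in the salivary glands and 62.1% in the liver.

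The 3 libraries had 3 different claudin sets. CLDN18, the claudin of the gastric mucosa and the lung, stood at 195 FPKM (6105 fragments) in the intestine-labelled library, 0.0711 FPKM (4 fragments) in the salivary glands and 0 in the liver. It was 1716-fold higher in the intestine-labelled library than in the salivary glands, with a 95% counting interval of 669.8 to 6300, and at least 3445-fold higher than in the liver, taking 3 fragments as the limit that a count of 0 allows. Counting intervals and this limit cover counting error only. It was the claudin that led in that library, and the gastric list, which summed to 58939, 53.7 and 1.4 FPKM in the 3 libraries, moved with it. The part of gastric mucosa in this level was not tested.

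The salivary glands led for a group of sealing claudins. CLDN3, a sealing claudin of many simple epithelia, was at 2.15 FPKM (22 fragments) in the intestine-labelled library, 373 FPKM (4572 fragments) in the salivary glands and 6.84 FPKM (147 fragments) in the liver. The gland level was 185-fold (122 to 295) over the intestine-labelled library and 46.8-fold (39.7 to 55.6) over the liver. CLDN8, which recruits CLDN4 in kidney tubules, had 3, 1712 and 0 fragments (0.192, 99.2 and 0 FPKM). Its ratio of glands to the intestine-labelled library was 508 with a counting interval of 173 to 2464, and the glands were at least 859-fold over the liver. CLDN4 itself was at 10.1, 81 and 0.769 FPKM. Of these genes it had the highest level outside the glands, and the glands were 9.23-fold (7.82 to 11) over the intestine-labelled library and 93.1-fold (63.3 to 143) over the liver.

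Further claudins led in the salivary glands at lower levels. CLDN7, a claudin of lateral membranes, was at 3.55, 36.5 and 1.28 FPKM in the intestine-labelled library, the glands and the liver. CLDN23 was at 8.37, 29.7 and 2.21 FPKM. Both were lowest in the liver. CLDN10, whose splice forms make cation or anion pores, was split between a short annotated model (0, 25 and 0.363 FPKM) and a newly assembled one (0.159, 1.78 and 0.0428 FPKM). Together the models had 5, 149 and 5 fragments, so that the glands were 44.9-fold (18.8 to 140.2) over the liver.

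The liver had the lowest claudin sum and a different order. CLDN1, a sealing claudin that is also a coreceptor for hepatitis C virus, was at 6.32, 7.87 and 19.8 FPKM and took 32.3% of the liver's claudin sum. The liver was 2.7-fold (2.27 to 3.23) over the intestine-labelled library and 2.22-fold (1.9 to 2.6) over the glands. CLDN2, a cation pore of leaky epithelia that was added to the named genes after its values were seen, had 260, 0 and 543 fragments (9.81, 0 and 10.6 FPKM). The liver and the intestine-labelled library thus carried CLDN2 at levels within 2-fold of each other, and the glands had none of it. The liver was at least 120.2-fold over the glands and the intestine-labelled library at least 97.4-fold. CLDN14 was the one member with at least 10 fragments in the liver and none elsewhere, at 0, 0 and 79 fragments (2.87 FPKM), at least 15.6-fold over the intestine-labelled library and at least 17.5-fold over the glands. This is 1 of the 65 members with at least 10 fragments in the liver (1.54%, all genes 2.45%).

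**Figure D2:**
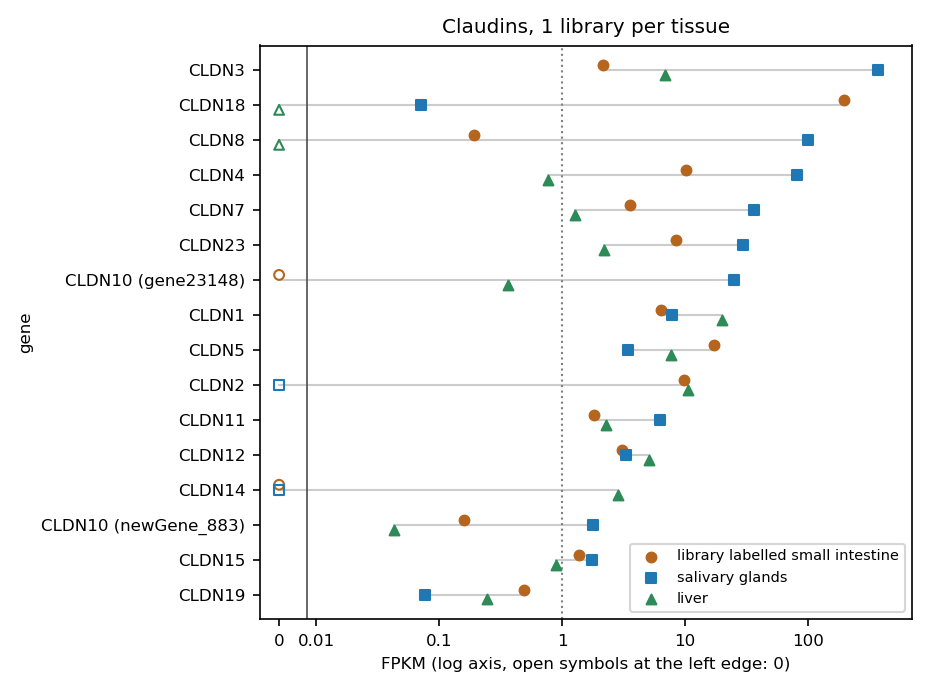
FPKM (x axis, logarithmic, with 0 drawn as open symbols at the left edge) of the 16 claudin genes with at least 10 fragments over the 3 libraries (y axis), 1 point per library. CLDN18 is far to the right in the intestine-labelled library alone, CLDN3, CLDN8, CLDN4 and CLDN7 in the salivary glands, and CLDN2 in both libraries other than the salivary glands. The dotted line marks 1 FPKM.

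CLDN5, the main claudin of blood vessel endothelium, was at 17.1, 3.46 and 7.64 FPKM. It was the second claudin of the intestine-labelled library, where it was 4.72-fold (3.4 to 6.69) over the glands and 1.78-fold (1.44 to 2.19) over the liver. The 10 genes of the endothelial list summed to 88.9, 49.1 and 57.9 FPKM in the same order, with none at 0 in any library. The sum was thus lowest in the glands too, but not every gene was. Both VWF genes were lowest in the liver (19.1, 17.1 and 1.46 FPKM, and 9.58, 7.01 and 0.609 FPKM). EMCN was lowest in the intestine-labelled library (0.411, 0.47 and 0.988 FPKM). The part of endothelial cells in the level of CLDN5 was not tested. CLDN12, also named after its values were seen, was the only claudin within 2-fold in all pairs, at 3.05, 3.28 and 5.07 FPKM. CLDN15, a cation pore of the intestine and likewise added, was low everywhere, at 1.36, 1.76 and 0.893 FPKM.

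Occludin and ZO-1 varied little beside the claudins. OCLN was at 14, 10.3 and 9.19 FPKM, and its largest log2 fold in any pair was 0.77. TJP1 (ZO-1) was annotated as 2 models, the longer at 11.4, 9.97 and 12.4 FPKM and the shorter at 2.92, 2.94 and 2.39 FPKM. The 614, 653 and 956 fragments of both models gave log2 folds between 0.04 and 0.12. TJP3 (ZO-3), which occurs mainly in epithelia, was the exception at 16.1, 36.6 and 4.14 FPKM. The glands were 2.58-fold (2.37 to 2.81) over the intestine-labelled library and 8.01-fold (7.19 to 8.95) over the liver.

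The JAM proteins fell into 2 patterns. F11R (JAM-A), the form of epithelia and platelets, was at 18.8, 22.4 and 10.9 FPKM and reached 2-fold only between the glands and the liver (2.04-fold, 1.8 to 2.3). JAM2 and JAM3, which are found on endothelial cells among others, were at 6.36, 0.658 and 1.02 FPKM and at 9.11, 0.746 and 3.52 FPKM. Both led in the intestine-labelled library, where JAM2 was 9.37-fold (5.13 to 18.7) and JAM3 11.4-fold (7.56 to 18) over the glands. JAML, a leukocyte adhesion molecule, was at 3.45, 3.03 and 1.16 FPKM, although the leukocyte marker list (11 genes) summed highest in the liver, at 34.8, 24.5 and 132 FPKM.

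E-cadherin was the leading cadherin of both libraries other than the liver. CDH1 was at 52.2 FPKM (1645 fragments) in the intestine-labelled library, 47.7 FPKM (2036 fragments) in the salivary glands and 11.4 FPKM (664 fragments) in the liver. On scaled counts the first 2 differed by a log2 fold of -0.14, with the glands higher, whereas FPKM put the intestine-labelled library higher. The intestine-labelled library was 4.19-fold (3.83 to 4.6) and the glands 4.62-fold (4.23 to 5.05) over the liver. A newly assembled gene on the opposite strand overlaps CDH1 and was listed at 27, 37.9 and 1.73 FPKM. Strand was not used in the mapping, so fragments of the pair cannot be told apart.

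The liver's cadherins were others. CDH20, a type II cadherin, had 4, 8 and 1771 fragments (0.089, 0.132 and 24.1 FPKM) and took 44.0% of the liver's cadherin sum. It was 262-fold (102 to 961) over the intestine-labelled library and 147-fold (74.5 to 341) over the glands. The non-redundant and KEGG entries name this gene CDH20, whereas its Swiss-Prot entry is that of CDH6. CDH2 (N-cadherin), which hepatocytes carry beside E-cadherin, had 28, 1 and 515 fragments (0.848, 0.0311 and 10.9 FPKM). The liver was 10.9-fold (7.43 to 16.5) over the intestine-labelled library, and its ratio to the glands was 342 with a counting interval of 61.1 to 13536. CDH2 and CDH1 thus stood at 10.9 and 11.4 FPKM in the liver.

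The salivary glands led for P-cadherin. CDH3, found in basal and myoepithelial cells, was at 1.2, 7.45 and 0.0196 FPKM (51, 390 and 2 fragments). The glands were 6.8-fold (5.07 to 9.3) over the intestine-labelled library. CDH17, the liver-intestine cadherin that marks intestinal epithelium in other mammals, had 7, 31 and 5 fragments (0.193, 0.833 and 0.109 FPKM). Its level was thus lower in the intestine-labelled library than in the glands, which led by 3.94-fold (1.7 to 10.6), and under 1 FPKM in all libraries. The enterocyte list was low there as well, at a median of 0.205 FPKM.

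The 12 cadherin genes that led in the intestine-labelled library include several models of the same protein, and some are known from non-epithelial cells. CDH13 (T-cadherin), which lacks a cytoplasmic domain, was annotated as 2 models at 9.19, 2.57 and 0.134 FPKM and at 14.8, 3.01 and 0 FPKM. Their 329, 102 and 6 fragments put the intestine-labelled library 3.63-fold (2.9 to 4.57) over the glands and 92.8-fold (42.2 to 255) over the liver. CDH24, a type II cadherin, was at 5.39, 0.556 and 1.04 FPKM, which is 8.21-fold (5.29 to 13.3) over the glands. CDH8, a neural type II cadherin, was found in this library alone. Its 3 models had 26, 37 and 56 fragments there, 119 together, and 0 in both other libraries, which puts it at least 44.6-fold over the glands and 67.1-fold over the liver. With GJD2 and a DCHS2 model, described below, the 3 CDH8 models are 5 of 83 members with at least 10 fragments there (6.02%, all genes 1.13%) that had none elsewhere, and the glands had 0 such members of 65 (all genes, 0.621%). CDH5 (VE-cadherin), which holds endothelial cells together, was at 5.83, 2.26 and 5.62 FPKM. Like CLDN5 it was lowest in the glands, by 2.32-fold (1.87 to 2.88) from the intestine-labelled library and by 2.25-fold (1.85 to 2.76) from the liver.

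Most smooth muscle markers moved with these genes. The 6 smooth muscle markers summed to 3169, 349 and 30.2 FPKM, and 4 of them led in the intestine-labelled library. ACTG2 was at 0 in all libraries, and ACTA2 led in none, at 130.1, 111 and 2.65 FPKM. The 6 neural and glial markers were mixed. There were 3 that led there, including TUBB3 of neurons at 3.89, 0 and 0 FPKM, while SOX10 led in the glands at 1.31, 7.62 and 0.056 FPKM, and the list summed to 16.7, 12.5 and 51.9 FPKM, with UCHL1 alone at 51.8 FPKM in the liver. The part of these cells in the cadherin levels was not tested.

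**Figure D3:**
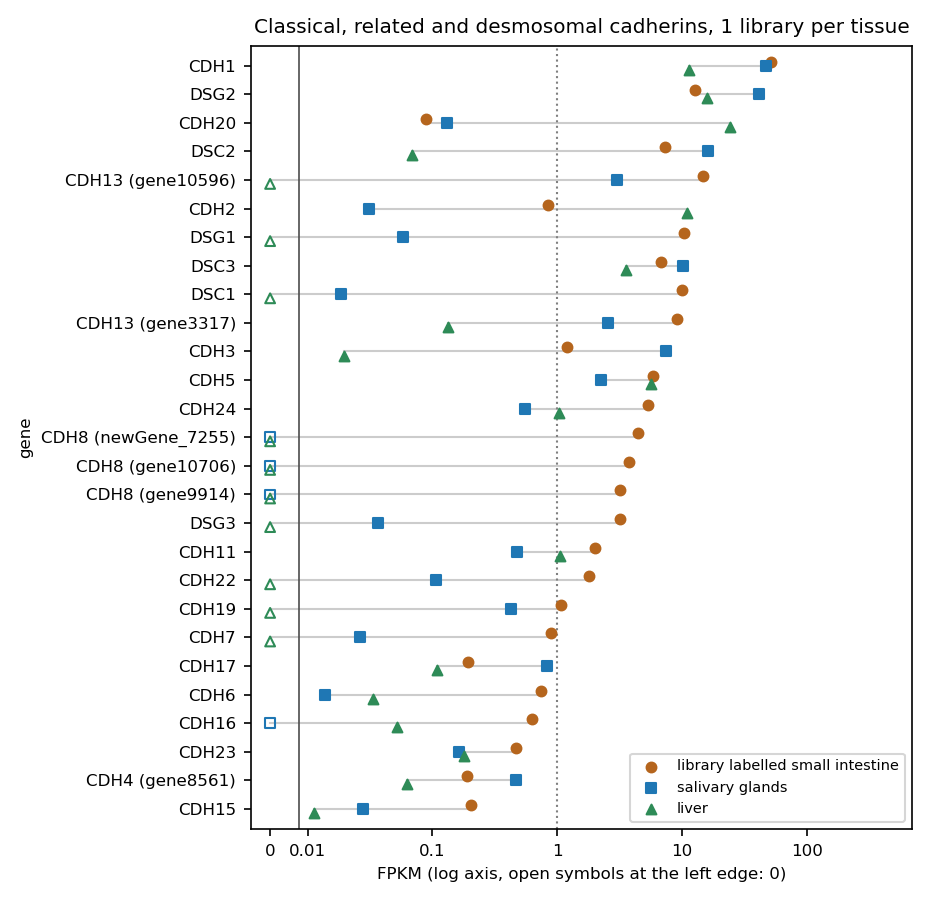
FPKM (x axis, logarithmic, with 0 drawn as open symbols at the left edge) of the cadherin and desmosomal cadherin genes with at least 10 fragments over the 3 libraries (y axis, with the gene model where a name has several), 1 point per library. DSG1, DSG3, DSC1 and the CDH8 models are above 1 FPKM in the intestine-labelled library alone, and CDH20 and CDH2 in the liver alone.

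Of the 7 desmosomal cadherins, 2 led in the glands and 3 in the intestine-labelled library. DSG2, present in all tissues with desmosomes, was at 12.8, 41.5 and 16 FPKM and made up 60.7% of the desmosomal sum in the glands and 81.5% in the liver. The glands were 3.42-fold (3.14 to 3.72) over the intestine-labelled library and 2.76-fold (2.58 to 2.94) over the liver. Its usual partner DSC2 was at 7.27, 16.3 and 0.0683 FPKM, the liver value resting on 3 fragments. DSC3, known from basal layers of stratified epithelium, was at 6.85, 10.3 and 3.57 FPKM and led in no library.

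The other 3 detected genes were found mainly in the intestine-labelled library and are known from stratified epithelium. DSG1 had 631, 4 and 0 fragments (10.4, 0.0583 and 0 FPKM), DSC1 had 484, 1 and 0 (10.1, 0.0184 and 0 FPKM) and DSG3 had 150, 2 and 0 (3.17, 0.0367 and 0 FPKM). Against the glands DSG1 was 177-fold higher (68.9 to 653), and the ratio was 544 (97.2 to 21537) for DSC1 and 84.3 (22.9 to 703) for DSG3. Against the liver the intestine-labelled library was at least 356-fold, 273-fold and 84.6-fold higher for these 3 genes. DSG4, a hair follicle desmoglein, had no fragment in any library.

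Some keratins of stratified epithelium moved with them. Of the 8 stratified epithelium markers, 5 led in the intestine-labelled library, among them KRT4 (825, 0.638 and 0 FPKM) and KRT13 (729, 0.56 and 0 FPKM), the keratin pair of moist stratified epithelia such as the oesophagus. The list summed to 1760, 92.2 and 1.4 FPKM, with 5 of 8 at 0 in the liver and KRT1 and KRT10 at 0 in the glands. KRT10 went the other way, highest in the liver at 0.275, 0 and 1.14 FPKM (1, 0 and 8 fragments). KRT5 and KRT14, of basal cells, led in no library, at 88.2 and 77.1 FPKM in the intestine-labelled library and 55 and 34.9 FPKM in the glands. The part of such epithelium in the desmosomal levels was not tested.

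In the plaque beneath desmosomes, PKP1, the plakophilin of stratified epithelia, was at 59.7, 0.681 and 0.0208 FPKM. DSP, the keratin anchor of every desmosome, was at 38.8, 29.5 and 7.05 FPKM, and JUP at 54.9, 36.4 and 11 FPKM. Of 10 plaque genes with enough fragments, 9 were higher in the intestine-labelled library than in the liver (all genes, 24.5%) and 9 in the glands than in the liver (all genes, 23.2%), none the other way. Between the intestine-labelled library and the glands, 2 were higher in the former (all genes, 20.5%) and 1 in the latter (all genes, 17%). The median log2 fold in these pairs was 2.33, 1.98 and 0.02.

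Most protocadherins were low. Of the 54 measured, 23 had under 10 fragments over the 3 libraries and 31 had at least 10 (all genes, 18642 of 24220). In at least 1 library, 19 exceeded 1 FPKM (35.2%, all genes 69.3%). PCDH1, a protocadherin of airway and other epithelia, was the leading one in every library, at 15.8, 31.1 and 11.6 FPKM, and the glands were 2.14-fold (1.95 to 2.35) over the intestine-labelled library and 2.52-fold (2.32 to 2.73) over the liver. PCDH10, a neural protocadherin, had 363, 1 and 0 fragments (8.13, 0.0191 and 0 FPKM). Its ratio of the intestine-labelled library to the glands was 408 (72.8 to 16164), and it was at least 205-fold over the liver. PCDH8 followed at lower contrast, at 5.34, 0.377 and 0.466 FPKM.

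Clustered protocadherins, which give neurons their individual surface codes, differed by cluster. The 7 alpha members measured had no more than 2 fragments in any library. Of 9 gamma members, 5 exceeded 1 FPKM in all libraries. PCDHGA1 was the highest of them in the glands, at 2.49, 9.2 and 2.73 FPKM (3.38-fold, 2.62 to 4.39, over the intestine-labelled library). PCDHGB7 had 2 models, of which the longer stayed within 2-fold in all pairs at 3.19, 1.98 and 2.5 FPKM. The beta member PCDHB10 was at 0.895, 3.91 and 1.35 FPKM, while its scaled counts put the glands 2.08-fold (1.5 to 2.93) over the intestine-labelled library. Clustered members are close copies of each other, and how fragments were shared between them is not stated, so their single values are uncertain.

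The giant cadherins of tissue polarity were mixed. FAT1, which acts in growth control and actin dynamics, was at 5.34, 4.95 and 4.52 FPKM and was among the steadiest members, with a largest log2 fold of 0.24. DCHS1, the ligand of FAT4, was at 6.51, 1.55 and 1 FPKM, and the intestine-labelled library was 3.56-fold (3.05 to 4.17) over the glands and 5.16-fold (4.43 to 6.03) over the liver. The 3 FAT4 models together, added after their values were seen, had 159, 35 and 35 fragments and led in the same library by 5.11-fold (3.52 to 7.59) and 7.69-fold (5.31 to 11.4). One DCHS2 model had 12 fragments in the intestine-labelled library and 0 elsewhere.

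CELSR1 and CELSR2, receptors of planar cell polarity, were lowest in the liver. CELSR1 was at 2.72, 4.29 and 0.108 FPKM and CELSR2 at 2.41, 1.89 and 0.107 FPKM. The glands were 36.8-fold (24.3 to 58.5) and 16.4-fold (10.7 to 26.4) over the liver, and the intestine-labelled library 21.3-fold (13.9 to 34.1) and 18.2-fold (11.8 to 29.2). The gene named CELSR3 was higher, at 20.2, 10.9 and 6.41 FPKM, but its Swiss-Prot entry is the sulfate transporter SLC26A2, so its level cannot be assigned to either protein. CDHR2 and CDHR5, which link the microvilli of intestinal brush borders and were added after their values were seen, had 8, 4 and 3 and 0, 0 and 4 fragments. On these few fragments CDHR2 led in the intestine-labelled library, at 0.197, 0.0758 and 0.0365 FPKM.

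**Figure D4:**
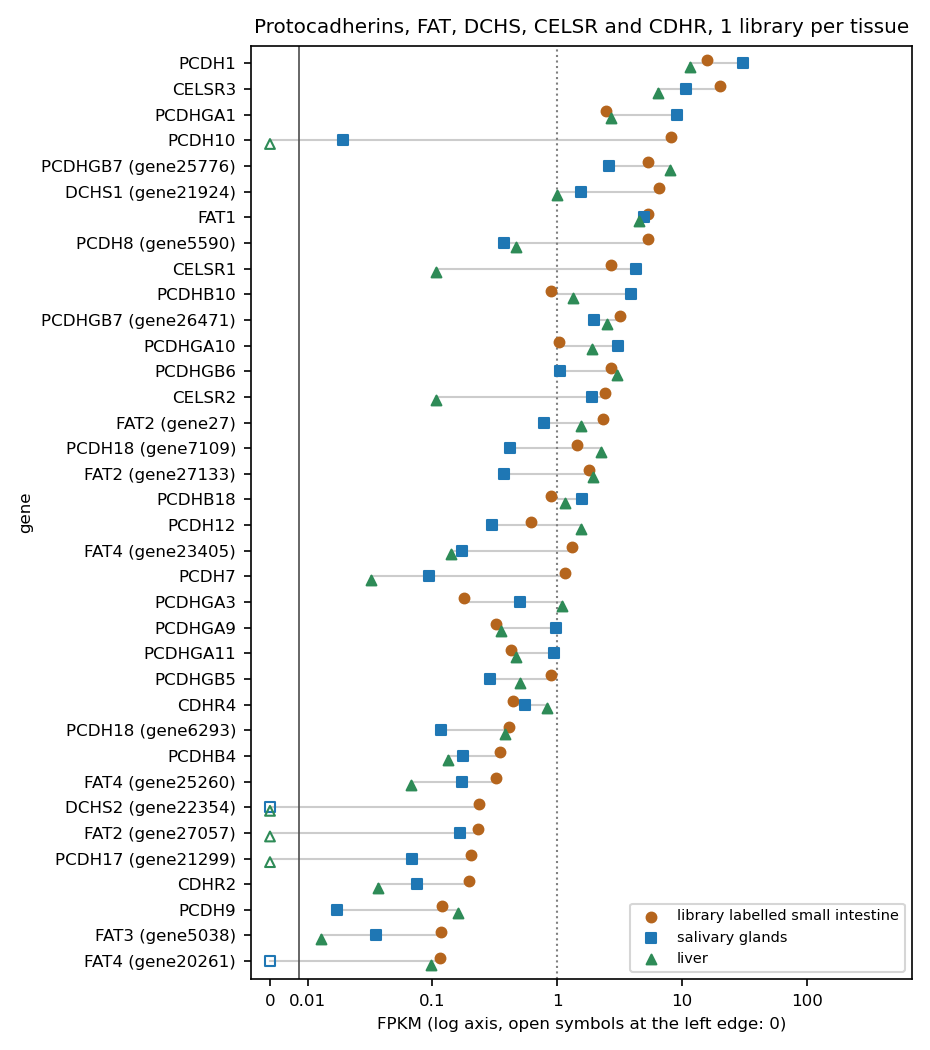
FPKM (x axis, logarithmic, with 0 drawn as open symbols at the left edge) of protocadherin, FAT, DCHS, CELSR and cadherin-related genes with at least 10 fragments over the 3 libraries (y axis), 1 point per library. PCDH1 is at the top with 15.8, 31.1 and 11.6 FPKM, and PCDH10 is above 1 FPKM in the intestine-labelled library alone.

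Each library had its own main connexin or shared it at another level. GJA1 (Cx43), the connexin of muscle and many other cells, was at 47.7 FPKM (1192 fragments) in the intestine-labelled library, 2.55 FPKM (74 fragments) in the salivary glands and 1.85 FPKM (68 fragments) in the liver. It took 61.7% of the connexin sum in the first, which was 18.1-fold (14.3 to 23.2) over the glands and 29.7-fold (23.2 to 38.5) over the liver. The smooth muscle markers MYH11 (638, 41.1 and 0.299 FPKM) and DES (754, 9.86 and 0.205 FPKM), both on the list whose sums are given above, moved with it. ACTA2 of the same list did not, with a log2 fold of 0.16 between the intestine-labelled library and the glands. The stratified list also summed highest in the intestine-labelled library. Their part in the level of GJA1 was not tested.

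GJB1 (Cx32), the main connexin of hepatocytes and gland cells, was at 7.48, 20.9 and 40.2 FPKM. It led the connexins of the glands (51.4% of the sum) and the liver (49.6%), and the liver was 2.01-fold (1.78 to 2.28) over the glands and 6.4-fold (5.21 to 7.95) over the intestine-labelled library. GJB2 (Cx26), which forms mixed channels with Cx32 in rodent liver, had 111, 166 and 0 fragments (5.54, 7.1 and 0 FPKM). The liver, the deepest library, had none. The glands were at least 83.3-fold and the intestine-labelled library at least 62.6-fold over it.

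The vascular connexins GJA4 (Cx37) and GJA5 (Cx40) were highest in the liver. GJA4 was at 8.86, 2.33 and 25.5 FPKM and GJA5 at 0.305, 0.0762 and 1.48 FPKM. The liver was 3.59-fold (2.97 to 4.35) and 4.7-fold (3.04 to 7.6) over the intestine-labelled library, and 11.6-fold (8.62 to 16.1) and 17.4-fold (8.26 to 43.8) over the glands. Endothelial markers did not share this order as a list, since only KDR and TIE1 of 10 led in the liver and the list summed highest in the intestine-labelled library, as given above. PCDH12, an endothelial protocadherin added after its values were seen, did lead in the liver at 0.615, 0.303 and 1.56 FPKM. A gene on the opposite strand overlaps PCDH12 and was listed higher, at 9.31, 4.97 and 8.93 FPKM. Since strand was not used in the mapping, the level of PCDH12 is uncertain.

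The remaining connexins were low or uncertain. GJC1 (Cx45) had 22, 4 and 2 fragments (1.88, 0.213 and 0.107 FPKM), and GJD2 (Cx36), of electrical synapses, had 14, 0 and 0. GJA9 was at 3.59, 6.65 and 11.7 FPKM, a log2 fold of -1.71 between the intestine-labelled library and the liver, but its scaled counts gave -0.45, within 2-fold. Of the 21 connexins, 12 had under 10 fragments over the 3 libraries and 9 had at least 10 (all genes, 18642 of 24220). No fragment was counted for 5 connexins (23.8%, all genes 13.0%). Pannexins, the related channel proteins, were matched to 4 genes, and PANX2 was the one that led in a library, at 3.8, 13.4 and 1.84 FPKM with the glands highest.

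**Figure D5:**
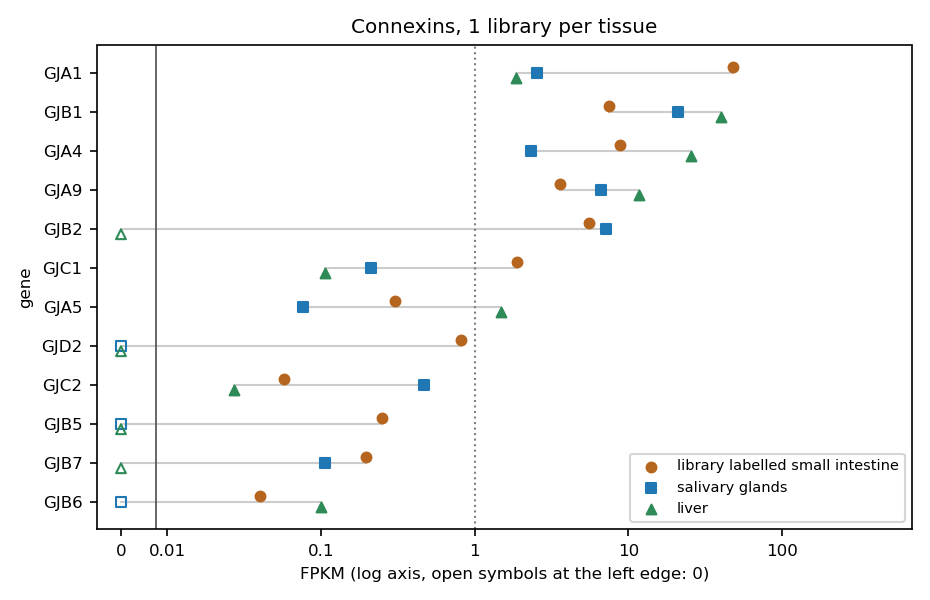
FPKM (x axis, logarithmic, with 0 drawn as open symbols at the left edge) of the connexin genes with at least 5 fragments over the 3 libraries (y axis), 1 point per library. GJA1 is highest in the intestine-labelled library and GJB1 and GJA4 in the liver, and GJB2 is at 0 in the liver.

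The 5 remaining members are not junction proteins by role. CLDND1, a claudin-like membrane protein, was at 19.5, 34 and 67 FPKM, and the liver was 2.96-fold (2.6 to 3.38) over the intestine-labelled library. OCEL1, which shares only a domain with occludin, was at 46.6, 41.5 and 44.3 FPKM with a largest log2 fold of 0.21. CPED1, named for a cadherin-like domain, had 372, 10 and 344 fragments over its 3 models, so that the intestine-labelled library was 41.8-fold (22.5 to 87.9) over the glands.

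Neighbouring genes did not always share a pattern. The 34 members on a scaffold with another member lay on 12 scaffolds, with coordinates as the deposited tables give them and the assembly name not given in the sources used here. CLDN4 (NW_016527738.1, 260706 to 262536, minus strand) and CLDN3 (289980 to 291285, plus strand) are neighbours, and both led in the glands. On NW_016533841.1, DSG1 (73563 to 107663), DSG4 (123661 to 153708), DSG3 (181475 to 211972) and DSG2 (219900 to 282383) follow each other on the plus strand. DSG1 and DSG3 led in the intestine-labelled library, DSG2 in the glands, and DSG4 between them was not detected. On NW_016531485.1 the desmocollins are likewise side by side, with DSC1 (135561 to 165660) led by the intestine-labelled library and DSC2 (84266 to 118974) by the glands. CLDN8 and CLDN17 share NW_016529542.1, with 1712 fragments of CLDN8 in the glands and none of CLDN17 in any library.

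Other genes of the junctions gave context to the members. Of 7 genes for cytoplasmic partners of classical cadherins, 3 were higher in the intestine-labelled library than in the liver (all genes, 24.5%) and none lower. CTNNB1 was at 64.2, 64.2 and 82.3 FPKM, CTNNA1 at 35.8, 37 and 28.6 FPKM and CTNND1 at 36.4, 32 and 19.8 FPKM. JUP, given above, was lowest in the liver. VCL, which also anchors the actin of smooth muscle, was at 55.9, 4.82 and 2.61 FPKM and led in the intestine-labelled library, as did CTNNA2 with 6, 0 and 4 fragments. Among 24 genes matched to tight junction scaffolds and polarity proteins, 4 of 22 were higher in the intestine-labelled library (all genes, 20.5%) and 3 in the glands (all genes, 17%). Against the liver, 9 of 23 were higher in the intestine-labelled library (all genes, 24.5%) and 2 lower (all genes, 23.8%), and 9 of 23 were higher in the glands (all genes, 23.2%) and 3 lower (all genes, 24.5%).

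Of 14 genes tested on the list of nectins and other adhesion molecules, 7 were higher in the glands than in the intestine-labelled library (all genes, 17%) and 2 lower (all genes, 20.5%). The 7 include both EPCAM genes, a newly assembled PVRL3 model with 14 fragments in the glands, and a V-set and immunoglobulin domain gene matched to CXADR with 16. EPCAM, which binds claudin-7, was annotated as 2 genes at 21.4, 104 and 12.4 FPKM and at 16.1, 84.5 and 14.3 FPKM. CXADR, the tight junction receptor named for coxsackievirus and adenovirus, went the other way, at 1.8, 1.37 and 9 FPKM for the gene of that name.

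Among 14 transcription and splicing regulators of junction genes, GRHL1 and OVOL2, factors of epithelial differentiation, led in the glands at 2.61, 16.3 and 2.04 FPKM and at 6.85, 22.4 and 0.603 FPKM. GRHL2, which is known to maintain E-cadherin and claudins, led in no library, at 6.31, 6.91 and 0.432 FPKM. GRHL3 and OVOL1, known from stratified epithelium, led in the intestine-labelled library at 4.71, 0.355 and 0.0204 FPKM and at 2.91, 0.289 and 0.192 FPKM. Repressors of CDH1 were on the list too. SNAI2 led in the liver at 6.8, 1.86 and 40.5 FPKM, and ZEB1 was at 8.67, 0.746 and 8.69 FPKM, lowest in the glands. TWIST1 led in the intestine-labelled library at 6.45, 1.4 and 0.405 FPKM, and SNAI1 and ZEB2 led in the liver at 0.778 and 2.4 FPKM. Of 13 regulators tested between the intestine-labelled library and the glands, 7 were higher in the former (all genes, 20.5%) and 3 in the latter (all genes, 17%).

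Gene names limit some values. The name used here was the same as the Swiss-Prot symbol for 72 of the 148 members that had one and with the KEGG symbol for 124 of 130, and 46 members share a product name with another member. A gene of the gamma protocadherin cluster carries the name protocadherin-18-like but the Swiss-Prot entry PCDHGB2, and it lies inside PCDHGA1. In all, 12 members overlap another gene, among them CELSR1 with TRMU (21.4, 20.9 and 18.5 FPKM).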

How the data were processed

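Each of the 3 libraries was 1 sample, with poly(A) RNA sequenced as paired reads. The authors mapped reads to the pangolin genome with TopHat2 without strand, assembled new genes with Cufflinks and deposited, per gene, a count of fragments, an FPKM value and a normalized score, which was not used for levels. Versions are not given in the sources used here. No columns of other series were present.

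Counts were scaled by TMM (edgeR 4.0.16, R 4.3.3) over all genes. Folds used 1 fragment in place of 0, or a limit of 3 where a bound is given. Ratios carry exact 95% intervals (scipy 1.17.1), which cover counting error only. Totals of 8318686 to 14568778 put the limit of a count of 0 at 0.205 to 0.347 on the scaled count (CPM) scale. The procedure was tested on simulated data.

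Members and lists were chosen with earlier results of these data known. Members named were the 8 highest above 1 FPKM of each type, the 5 with the largest folds per library, those seen in 1 library alone and a short list of well-known junction genes. Others named were added after their values were seen, as was the count of members within 2-fold. List genes were matched by KEGG symbol, then Swiss-Prot symbol, because Swiss-Prot symbols alone named paralogs. No sequences are shown. Some genes are not reported here.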

Additional observations from a re-analysis of the deposited data

How the results depend on the processing

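Calls were not reversed. Of 696 folds of the named members under other scalings or the deposited FPKM, 0 were called in the opposite direction and 21 crossed the 2-fold line. Small folds could change sign, as that of CDH1 between the intestine-labelled library and the glands did in FPKM. Scaling by total counts alone shifted log2 folds by -0.46 (intestine-labelled library against glands), -0.24 (against liver) and 0.22 (glands against liver). It moved the share of calls higher in the first library from 67.6% to 60.9%, from 78.9% to 77.2% and from 56.4% to 63.5%. Of 90 counts under an alternative, 74 stayed within 1.5 times. With at least 4-fold required, members higher in the intestine-labelled library or in the glands numbered 31 and 8, those higher in the liver than in the intestine-labelled library 6, and those higher in the glands or in the liver 20 and 13. The exact test of edgeR with an assumed coefficient of variation of 0.4, which these data cannot estimate, gave 25 and 7, 4, and 17 and 9 in the same order. At least 50 fragments left 28 members higher in the intestine-labelled library than in the glands and 19 that it led, and no filter gave 48 higher in the glands than in the liver. Above 5 FPKM there were 38, 26 and 24 members in the intestine-labelled library, the glands and the liver.

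In TPM (FPKM rescaled to 1000000 in each library) the sums in these libraries were, for claudins 363, 1121 and 98.5, for the occludin, ZO and JAM group 139, 169 and 90.6, for cadherins 153, 112 and 87.8, for desmosomal cadherins 70.6, 114 and 31.5, for protocadherins 100.3, 113 and 78.9, for CELSR and cadherin-related genes 36.4, 29.8 and 12.2, for connexins 108, 68.1 and 130.0. The sums in FPKM without the gene with the most FPKM over the libraries were 257, 296 and 54.5 without CLDN3, 83.2, 64.1 and 52.3 without TJP3, 57.1, 19 and 43.3 without CDH1, 37.7, 26.8 and 3.63 without DSG2, 55.9, 36.3 and 37.5 without PCDH1, 5.81, 6.83 and 1.19 without CELSR3 and 29.6, 38.1 and 79.1 without GJA1. No paired analysis was possible because each tissue has 1 library and the labels give no replicate numbers. With 1 library per tissue no difference has a replicate check, and low genes are limited by depth. Choosing members by the Swiss-Prot entry gave 151 genes, 144 of them shared with the rule used.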
